A study of Homo sapiens with 18 samples.

Results

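HEK293T is an established human embryonic kidney cell line. RNA was sequenced from its parental form (3 libraries) and from lines in which CRISPR-Cas9 was aimed at UBR7 (UBR7KO, 3 libraries). UBR7 belongs to the UBR box proteins, and the series concerns its part in chaperoning histone H3. The sample descriptions carry a date code for 4 of these 6 libraries. Parental-1 and KO1-1 share 1 code, called date A here, and parental-2 and KO1-2 share another, called date B. The other 2 libraries, parental-3 and KO2-1, carry no date. The undated pair is compared here with the 4 dated libraries, 2 of the series' 18 samples against 4. The labels set which libraries are compared, and genotype is a covariate. Parental cells in both sets are unedited HEK293T. UBR7KO cells are line KO1 in the dated set and line KO2 in the undated set, so in UBR7KO the set and the line cannot be told apart. The medium was DMEM with fetal bovine serum for all cells, and no label gives another treatment. Whether the libraries come from separate cultures is not stated, so p-values measure only the spread between these libraries.

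Cells in culture keep several stress programmes at a level that follows their medium and handling. In the integrated stress response, phosphorylation of the translation factor eIF2 lets the cell make the transcription factor ATF4, which raises genes of amino acid synthesis, amino acid transport and tRNA charging. In the heat shock response, the factor HSF1 raises chaperones that fold proteins. Immediate early genes such as FOS and EGR1 respond within minutes to serum and to handling.

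The deposited table gives read counts scaled to the size of the library (CPM) for 14177 genes, each above 1 CPM in at least 2 libraries, so all of them were tested. The libraries held between 22153291 and 29811908 reads. UBR7 itself, read first as a check of the labels, stood at 55.0 and 62.2 CPM in the dated parental libraries, 27.0 and 26.3 CPM in the KO1 libraries, 62.2 CPM in parental-3 and 64.5 CPM in KO2-1. The library labelled KO2 thus held as much UBR7 RNA as the parental libraries. Differences below are in log2(CPM + 1), undated minus dated. The median over all genes was -0.17, and it became 0.00 after trimmed-mean (TMM) scaling, so directions are read against that shift. The lowest value in parental-1 was 9 reads, against 0 or 1 in the other libraries. Genes silent in parental-1 are therefore not among those tested, and a rise from silence there could not be seen. The numbers of genes above 1 CPM in 1 pair alone were 271 for date A, 35 for date B and 22 for the undated pair.

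The first question was which genes separated the undated pair from all dated libraries by more than the spread within each set. With genotype as the covariate, limma called 1 gene higher (0.00705% of those tested) and 3 genes lower (0.0212%) at a Benjamini-Hochberg adjusted p under 0.05. At an unadjusted p under 0.05 there were 905 higher and 2700 lower genes, and at an adjusted p under 0.1 there were 294 and 957. The gene called higher was CCDC86, which encodes a nucleolar coiled-coil protein. The genes called lower were BHLHE40, a basic helix-loop-helix repressor of the circadian clock, and the pseudogenes CTD-2328D6.1 and AC010970.2.

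CCDC86 (ENSG00000110104) lies on chromosome 11, 60609544 to 60618554 in GRCh37-type coordinates. It measured 42.8 and 37.2 CPM in the dated parental libraries and 34.5 and 38.5 CPM in KO1. It stood at 128 CPM in parental-3 and 137 CPM in KO2-1. Both undated libraries lay above all dated ones, which differed little among themselves. The difference was 1.77 (SE 0.16, limma adjusted p = 0.0369), a 3.41-fold higher level on the CPM + 1 scale. BHLHE40 (ENSG00000134107) lies on chromosome 3, 5020801 to 5027008. It measured 47.2 and 53.9 CPM in the dated parental libraries and 56.8 and 48.0 CPM in KO1. It stood at 13.7 CPM in parental-3 and 12.5 CPM in KO2-1, below all dated libraries. The difference was -1.89 (SE 0.18, limma adjusted p = 0.0369), 3.71-fold lower. Neither call was kept without KO1-1, without KO1-2 or without either undated library, while the differences stayed between 1.66 and 1.88 for CCDC86 and between -1.98 and -1.80 for BHLHE40. The call of BHLHE40 was also lost with RLE scaling (-1.72). With the date pair as a random replicate block, 0 genes were called higher, so the call of CCDC86 was lost. The same held for a fit with no mean-variance trend.

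The gene starts of this pair are shown because they are the genes coding for proteins that the test called. The stretches come from RefSeq (GRCh38.p14), 250 bases before the start and 50 from it on, 5′ to 3′ on the gene's strand. Capitals mark the E-box CACGTG, bound by factors such as MYC, USF and the BHLHE40 protein itself, and the cyclic AMP response element TGACGTCA, bound by CREB and ATF factors. CCDC86 lies at chr11:60841863-60842162 (+) and BHLHE40 at chr3:4979187-4979486 (+).
CCDC86: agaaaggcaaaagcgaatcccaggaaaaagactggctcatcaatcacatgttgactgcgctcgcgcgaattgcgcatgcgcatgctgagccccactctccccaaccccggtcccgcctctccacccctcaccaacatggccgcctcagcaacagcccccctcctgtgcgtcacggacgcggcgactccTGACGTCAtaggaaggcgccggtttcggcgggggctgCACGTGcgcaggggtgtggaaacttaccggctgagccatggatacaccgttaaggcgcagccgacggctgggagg
BHLHE40: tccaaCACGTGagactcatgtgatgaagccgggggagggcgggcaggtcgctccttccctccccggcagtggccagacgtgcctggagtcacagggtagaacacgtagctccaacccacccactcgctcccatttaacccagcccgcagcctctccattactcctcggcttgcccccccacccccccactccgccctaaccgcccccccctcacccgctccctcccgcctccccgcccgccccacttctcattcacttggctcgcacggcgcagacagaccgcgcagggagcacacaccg
In CCDC86 the E-box began 25 bases before the start and the cyclic AMP response element 62 bases before it. In BHLHE40 the E-box began 245 bases before the start. Both motifs read the same on either strand. An E-box was in 7.26% of the 35116 RefSeq starts and a cyclic AMP response element in 1.85%. Among tested genes the shares were 12.8% and 3.94%. A match is a description of the letters only.

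CTD-2328D6.1 (ENSG00000226958, a pseudogene on chromosome X, 108297361 to 108297792) took 6.13% and 5.47% of reads in the dated parental libraries and 5.77% and 2.35% in KO1. It took 0.0237% in parental-3 and 0.0136% in KO2-1. The difference was -8.0 (SE 0.39, limma adjusted p = 0.000776), and the call was lost without either undated library. AC010970.2, a pseudogene model placed on chromosome Y (10036113 to 10036711), moved with it. It stood at 3738 and 4464 CPM in the dated parental libraries, 2680 and 1939 CPM in KO1, 13.7 CPM in parental-3 and 8.32 CPM in KO2-1. The difference was -8.03 (SE 0.22, limma adjusted p = 2.74e-05), and the call was kept without any 1 library. The level of AC010970.2 was between 4.64% and 8.26% of that of CTD-2328D6.1 in every library. On the CPM + 1 scale the undated level was 261-fold lower for AC010970.2 and 256-fold lower for CTD-2328D6.1. CTD-2328D6.1 was listed here among ribosomal RNA-like transcripts, with MT-RNR1 and MT-RNR2. Which RNA the reads of both pseudogenes come from was not tested.

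**Figure D1:**
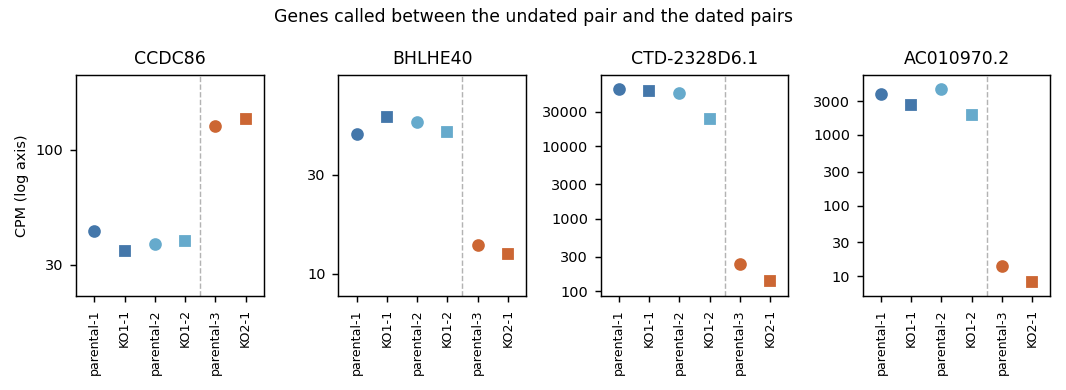
CPM on a log axis in each library for the 4 genes called; circles are parental and squares UBR7KO libraries, dark blue is date A, light blue date B and orange the undated pair, and the dashed line parts dated from undated libraries. CCDC86 lies at 128 and 137 CPM in the undated pair, above every dated library, and the other 3 genes lie below every dated library.

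The next question was whether these changes hold without line KO2. In the fit of the 4 group means, the undated parental library against the 2 dated ones gave 0 genes higher and 1 gene lower (0.00705% of those tested), AC010970.2 (difference -8.12, limma adjusted p = 0.0172). At an unadjusted p under 0.05 there were 425 higher and 1142 lower genes, and this contrast rests on 2 residual degrees of freedom and 1 undated library. In UBR7KO the same fit called 0 genes higher and 4 lower. Both undated libraries lay above all 4 dated ones in 1809 genes (12.8%) and below all 4 in 4315 genes (30.4%).

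The date codes pair the dated libraries, and the dates themselves differed. Libraries of 1 pair had 134, 87 and 306 genes at least 2-fold apart, against 665 to 1315 between the dates and 898 to 2174 between dated and undated libraries. A fit with the date pair as a replicate block compares the undated pair with the mean of both dates against the spread within pairs. It called 1487 genes higher (10.5%) and 3501 lower (24.7%) on CPM, and 2627 higher (18.7%) and 2235 lower (15.9%) after TMM scaling. Of the calls, 29.8% were higher on CPM and 54.0% after TMM scaling. The same fit called 942 genes higher and 2433 lower at date B than at date A on CPM, and 1619 and 1502 after TMM scaling. This fit takes the 3 occasions as given, although no label says that parental-3 and KO2-1 share an occasion. With the undated libraries taken as 1 occasion, the spread between occasions that the first test uses is not part of it. Below, "rose" and "fell" refer to this fit on CPM, and "adjusted p" to its limma value, unless another is named. Counts in the lists below are read against its shares of all genes, 10.5% rising and 24.7% falling. Leaving out a date moved those too: over all genes 1274 rose and 1679 fell without date A, and 903 and 3097 without date B.

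Of the genes that rose, 1384 (93.1%) also lay above both dated libraries in parental cells alone, and 174 (11.7%) were also at least 2-fold above the mean log2 level of those libraries. Of those that fell, 3329 (95.1%) lay below both, and 790 (22.6%) were also at least 2-fold below that mean. Over all genes, parental-3 lay above both dated parental libraries in 26.0% and below both in 44.1%. The calls used these same parental libraries, so the high shares among called genes follow in part from the calling. Against the mean of the dated libraries, at least 2-fold higher levels in both genotypes were seen in 59 genes and at least 2-fold lower levels in 361, against 19 genes at least 2-fold apart in opposite directions. The test of the difference between genotypes called 0 genes in either direction (lowest limma adjusted p = 0.625), with 125 and 213 genes at an unadjusted p under 0.05.

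**Figure D2:**
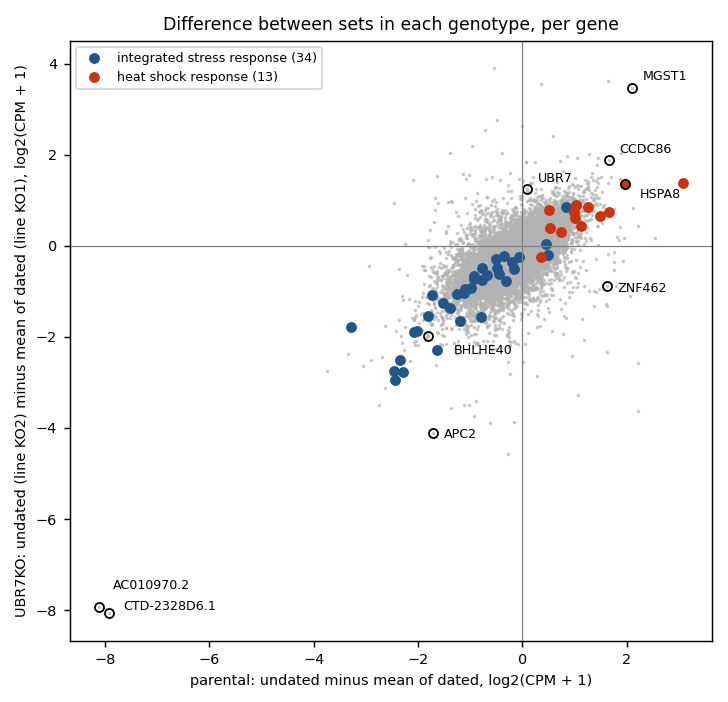
Each grey point is 1 gene, with the undated minus dated difference in log2(CPM + 1) in parental cells on the x axis and in UBR7KO on the y axis; blue points are the 34 integrated stress response genes, red points the 13 heat shock genes and open circles named genes. CTD-2328D6.1 and AC010970.2 lie lowest on both axes, and ZNF462 is at 1.62 in parental cells and -0.89 in UBR7KO.

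The 15 largest rises and 15 largest falls were taken from 161 and 690 genes that were called on CPM and after TMM scaling, were at least 2-fold from the mean of the dated libraries in parental cells and did not overlap between sets. Among the rises were ID3 and ID1, inhibitors of helix-loop-helix factors and targets of BMP signalling, GAL, a neuropeptide, and DOHH, the enzyme that completes hypusine in the factor eIF5A. ID3 stood at 21.8 and 7.94 CPM in the dated parental libraries, 15.3 and 7.18 CPM in KO1, 52.3 CPM in parental-3 and 46.8 CPM in KO2-1 (difference 1.97, SE 0.15, adjusted p = 0.000281). ID1 stood at 3.61 and 2.48 CPM, 2.39 and 2.28 CPM, 12.1 CPM and 8.45 CPM in the same order (difference 1.61, SE 0.19, adjusted p = 0.00148). GAL rose from 9.75 to 13.9 CPM in the dated libraries to 33.2 and 47.3 CPM, and DOHH from 5.87 to 7.70 CPM to 20.0 and 19.7 CPM. The other rises included CCDC85B, PNPLA4, C20orf24, SHB, OAS3, HSPA8, a pseudogene (RP11-777B9.5) and ENSG00000207985, which has no symbol in the table.

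For some of the genes with the largest differences, KO1 stood apart from parental cells within the dated set. MGST1, a microsomal glutathione transferase, stood at 5.84 and 9.16 CPM in the dated parental libraries, 0.947 and 0.549 CPM in KO1, 34.6 CPM in parental-3 and 18.3 CPM in KO2-1. It was higher in both undated libraries than in every dated one, by 2.1 in parental cells and 3.48 in UBR7KO. The long noncoding RNA RP11-453F18__B.1 on chromosome X stood at 16.1 and 11.9 CPM, 1.93 and 1.53 CPM, 45.6 CPM and 32.7 CPM in the same order. APC2, a relative of the Wnt pathway scaffold APC, went down: it stood at 5.76 and 2.93 CPM in the dated parental libraries, 37.5 and 23.3 CPM in KO1, 0.583 CPM in parental-3 and 0.772 CPM in KO2-1. Its difference was -1.70 in parental cells and -4.11 in UBR7KO, and no test called that gap between genotypes. BEX1, a small neuronal adaptor protein, was high in parental-3 alone, at 26.5 CPM against 6.89 and 6.82 CPM in dated parental cells and 1.33 to 1.98 CPM in the UBR7KO libraries. Its difference between genotypes was not called either.

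Genes of the integrated stress response were lower in the undated pair. Of the list's 34 tested genes 27 fell and 1 rose, with a median of -0.99 on CPM and -0.81 after TMM scaling, and 24 of the falls were also called after TMM scaling. Both undated libraries lay below all dated ones in 25 of the 34, against 30.4% of all genes. The list's mean log2(CPM + 1) was 7.12 in parental-1, 6.93 in KO1-1, 6.05 in parental-2, 6.40 in KO1-2, 5.52 in parental-3 and 5.57 in KO2-1. In 22 of the 34 genes (64.7%, against 18.2% of all genes) date A lay above date B and that above the undated pair, in both genotypes. Without date A, 17 of the genes fell, and without date B, 27. Without KO2-1, 23 fell.

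**Figure D3:**
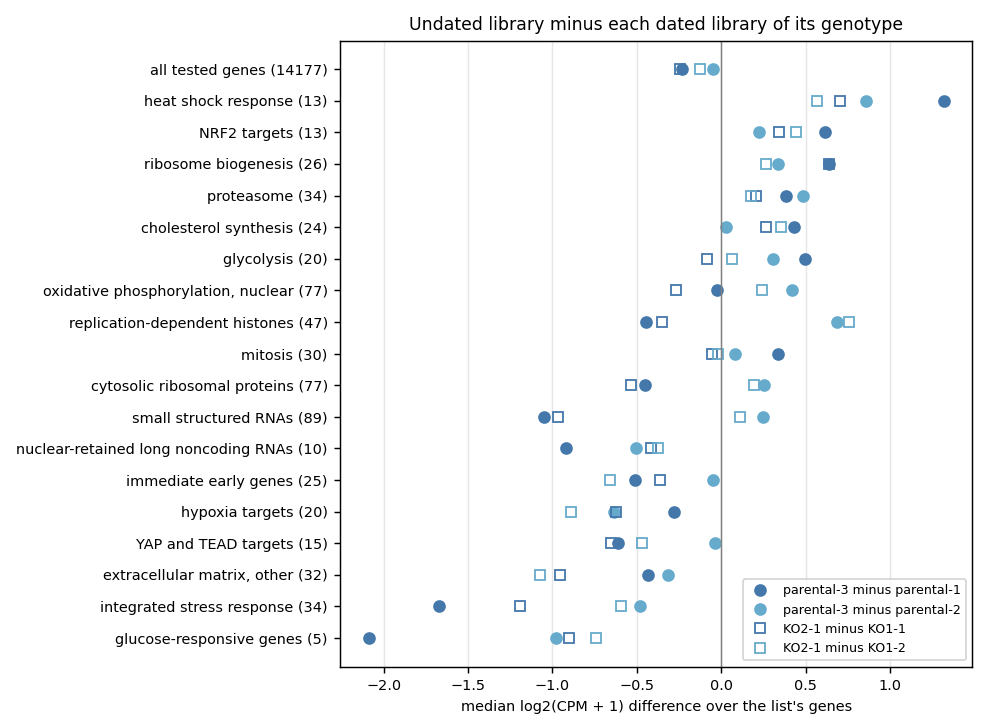
Median difference in log2(CPM + 1) over the genes of each list (tested genes in brackets) between an undated library and each dated library of its genotype; filled circles are parental and open squares UBR7KO, dark blue against date A and light blue against date B. The integrated stress response lies left of all genes and the heat shock response right of them in all 4 differences, while histones, ribosomal proteins and small structured RNAs change sign with the date.

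Among its targets, CHAC1, which degrades glutathione, stood at 48.6 and 8.40 CPM in the dated parental libraries, 43.8 and 18.6 CPM in KO1, 2.95 CPM in parental-3 and 2.82 CPM in KO2-1 (difference -2.70, SE 0.26, adjusted p = 0.00129). PCK2, the mitochondrial form of phosphoenolpyruvate carboxykinase, stood at 98.0 and 34.4 CPM, 128 and 54.2 CPM, 9.75 CPM and 11.5 CPM in the same order (difference -2.61, SE 0.13, adjusted p = 5.06e-05). ASNS, asparagine synthetase, stood at 507 and 191 CPM, 503 and 235 CPM, 75.9 CPM and 94.0 CPM (difference -1.94, SE 0.12, adjusted p = 0.000122). In all of them the undated libraries lay below every dated one, and the dates were far apart from each other. DDIT3, the factor CHOP, stood at 10.8 to 27.0 CPM in the dated libraries and at 2.71 and 2.15 CPM in the undated ones. DDIT4, an inhibitor of the kinase complex mTORC1, stood at 142 to 313 CPM and at 18.3 and 67.7 CPM. NUPR1, a stress-induced chromatin protein, stood at 3.20 to 12.5 CPM and at 0.480 and 0.168 CPM.

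Among other enzymes and transporters of amino acids, PSAT1 and PHGDH of serine synthesis fell by 1.08 and 0.53, CTH of cysteine synthesis fell by 1.99, and the serine transporter SLC1A4 fell by 1.68. The tRNA synthetases SARS, AARS and GARS fell by 0.76, 0.55 and 0.48, and WARS had a difference of -0.16 (adjusted p = 0.311). ATF4 RNA itself had a difference of -0.27 (adjusted p = 0.118), at 321 and 332 CPM in the undated pair against 338 to 523 CPM. The member that rose was ATF5, a related factor, with 6.28 to 8.94 CPM in the dated libraries and 12.1 and 14.5 CPM in the undated ones (difference 0.84, adjusted p = 0.00823). TRIB3, a target of CHOP, fell by 0.96 with the block, but its undated libraries at 19.5 and 21.9 CPM lay within the dated range of 13.5 to 113 CPM. INHBE, an activin subunit known to be induced by this response, stood at 1.72 to 18.6 CPM in the dated libraries and 0.172 and 0.201 CPM in the undated ones.

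The starts of ASNS and CHAC1 are shown because their differences are among the largest and each holds a match to the amino acid response element TGATGNAAN, the type of site that ATF4 dimers bind, in capitals (RefSeq, GRCh38.p14, the same window). ASNS lies at chr7:97872359-97872658 (-) and CHAC1 at chr15:40953221-40953520 (+).
ASNS: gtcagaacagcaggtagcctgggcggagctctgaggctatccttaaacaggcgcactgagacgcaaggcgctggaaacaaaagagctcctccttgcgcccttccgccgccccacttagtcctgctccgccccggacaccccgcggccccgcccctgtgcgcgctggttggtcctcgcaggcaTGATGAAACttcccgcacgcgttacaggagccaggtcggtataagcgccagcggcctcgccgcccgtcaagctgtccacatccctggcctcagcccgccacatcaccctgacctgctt
CHAC1: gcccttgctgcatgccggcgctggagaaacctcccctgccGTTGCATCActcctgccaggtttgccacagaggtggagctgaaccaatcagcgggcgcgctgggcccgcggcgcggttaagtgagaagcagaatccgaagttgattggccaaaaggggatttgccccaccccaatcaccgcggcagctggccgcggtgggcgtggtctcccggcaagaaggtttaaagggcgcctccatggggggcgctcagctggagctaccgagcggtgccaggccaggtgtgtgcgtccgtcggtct
The match began 68 bases before the start in ASNS, on the gene's strand, and 210 bases before it in CHAC1, on the other strand. Of the 29 genes of the list with a RefSeq start, 9 (31.0%) held the letters on either strand: AARS1, ASNS, CEBPG, CHAC1, GARS1, SLC1A4, SLC1A5, SLC3A2 and SLC7A1. Of 10715 tested genes with a start, 2.69% held them. Both shares were counted whether a gene was called or not, so they describe the list and not its fall. SLC1A5 and SLC3A2 hold a match and did not pass the test, with differences of 0.24 and -0.34.

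The heat shock list moved the other way. Of its 13 tested genes 11 rose and none fell, with a median of 0.87 on CPM and 1.05 after TMM scaling. In 12 of the 13 both undated libraries lay above all dated ones, against 12.8% of all genes. All 13 were higher than both dated libraries in parental cells, against 26.0% of all genes. The list's mean log2(CPM + 1) was 6.58 in parental-1, 7.12 in KO1-1, 7.24 in parental-2, 7.30 in KO1-2, 8.12 in parental-3 and 7.90 in KO2-1. Without date A, 8 rose, and without date B, 10. Without parental-3, 7 rose.

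HSPA8, the constitutive HSP70 chaperone, stood at 456 and 2068 CPM in the dated parental libraries, 1048 and 1860 CPM in KO1, 3815 CPM in parental-3 and 3582 CPM in KO2-1 (difference 1.67, SE 0.31, adjusted p = 0.0175). The undated libraries were highest, and parental-1 was lowest. HSP90AA1, the inducible HSP90, stood at 367 and 708 CPM, 645 and 981 CPM, 1610 CPM and 1341 CPM in the same order (difference 1.2, SE 0.21, adjusted p = 0.0068). DNAJB1, an HSP40 co-chaperone, stood at 33.5 to 58.1 CPM in the dated libraries and 106 and 78.4 CPM in the undated ones. The mitochondrial chaperonin genes HSPD1 and HSPE1 had differences of 0.81 and 0.87 (adjusted p = 0.00318 and 0.00281). HSPA1B, an inducible HSP70 with a near-identical copy that makes its count uncertain, had the largest difference of the list, 2.23, and did not pass the test (adjusted p = 0.0708). It stood at 23.3 to 74.1 CPM in the dated libraries, 318 CPM in parental-3 and 181 CPM in KO2-1. SERPINH1, the collagen chaperone, had a difference of 0.06 (adjusted p = 0.777).

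The starts of HSPA8 and HSP90AA1 are shown for their matches to a heat shock element, the type of site that HSF1 binds, searched as GAA then TTC then GAA with 2 bases of any kind between, on both strands. This search was added after the values were seen. HSPA8 lies at chr11:123062087-123062386 (-) and HSP90AA1 at chr14:102086995-102087294 (-).
HSPA8: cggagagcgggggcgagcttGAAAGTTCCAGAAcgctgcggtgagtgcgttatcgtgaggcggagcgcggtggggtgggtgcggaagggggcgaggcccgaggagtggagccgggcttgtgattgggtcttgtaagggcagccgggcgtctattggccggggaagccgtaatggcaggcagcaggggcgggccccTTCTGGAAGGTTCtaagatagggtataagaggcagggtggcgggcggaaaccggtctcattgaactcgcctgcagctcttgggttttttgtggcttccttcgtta
HSP90AA1: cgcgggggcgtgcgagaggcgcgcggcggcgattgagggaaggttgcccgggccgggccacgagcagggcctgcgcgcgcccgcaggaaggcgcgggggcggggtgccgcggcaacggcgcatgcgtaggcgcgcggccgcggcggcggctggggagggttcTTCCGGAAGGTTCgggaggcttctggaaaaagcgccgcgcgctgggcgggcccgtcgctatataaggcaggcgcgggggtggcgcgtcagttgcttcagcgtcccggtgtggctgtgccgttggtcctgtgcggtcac
HSPA8 held matches that began 230 and 55 bases before the start, and HSP90AA1 held 1 that began 88 bases before it. Among the 13 genes 6 (46.2%) held a match, HSP90AB1, HSPD1, DNAJA1 and SERPINH1 being the others, against 0.513% of tested genes. Both shares were counted whether a gene was called or not, so they describe the list and not its rise. SERPINH1 held a match and did not pass the test, and DNAJB1 and HSPA1B held none in this window and are among the largest differences.

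**Figure D4:**
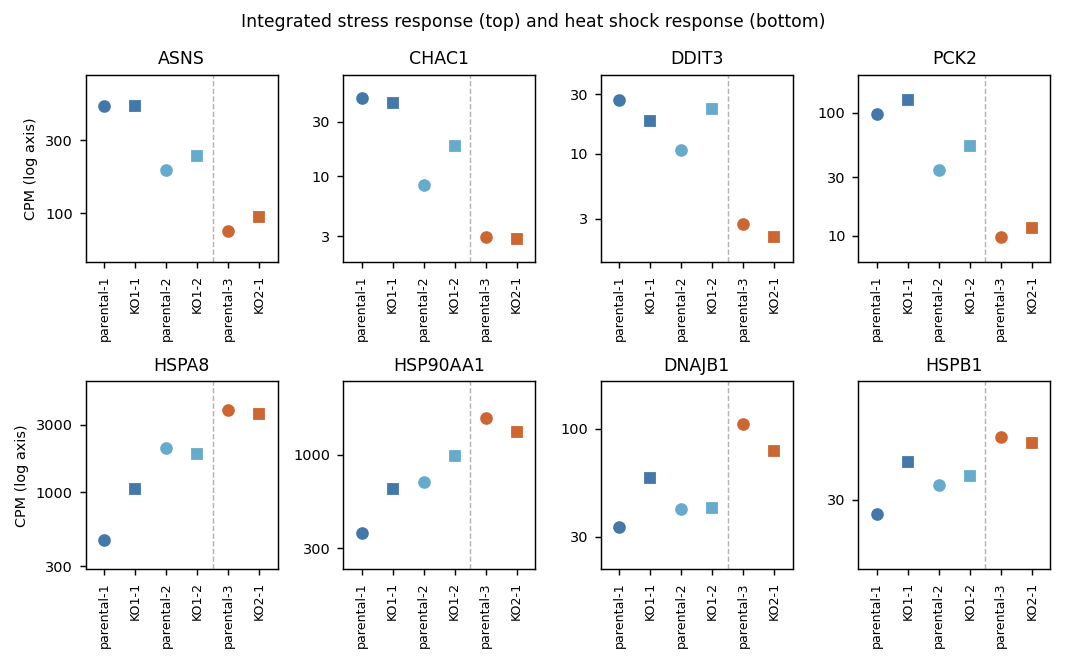
CPM on a log axis in each library for 4 genes of the integrated stress response (top) and 4 of the heat shock response (bottom), with the symbols and colours of the plot of the called genes. The undated pair is lowest in each gene of the top row, with CHAC1 at 2.95 and 2.82 CPM, and highest in each gene of the bottom row, with HSPA8 at 3815 and 3582 CPM.

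Genes of ribosome assembly rose as well. Of 26 tested genes 17 rose and none fell, with a median of 0.41 on CPM and 0.59 after TMM scaling. NOL6, a subunit processome protein, stood at 34.2 and 20.9 CPM in the dated parental libraries, 23.5 and 20.2 CPM in KO1, 74.1 CPM in parental-3 and 54.7 CPM in KO2-1 (difference 1.36, SE 0.14, adjusted p = 0.00113). NOP16 and RRS1, which act on the large subunit, had differences of 1.24 and 1.2, with undated levels of 53.2 and 48.9 CPM and of 50.2 and 46.0 CPM. Fibrillarin (FBL), the rRNA methyltransferase, had a difference of 0.11 (adjusted p = 0.506). MYC, a known activator of such genes, rose by 0.63 (adjusted p = 0.0355), at 169 and 217 CPM against 81.8 to 165 CPM. Its part in the rises of this list was not tested. An E-box was in 9 of the 22 gene starts of the list (40.9%), DDX21, FBL, GNL3, NOL6, NOP2, PES1, RRP9, UTP20 and WDR43, against 12.8% of tested genes. Here too the shares were counted whether a gene was called or not. Without date A, 10 of the list's genes rose.

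Of 34 proteasome genes 12 rose and none fell (median 0.35, and 21 rose after TMM scaling). PSMB2, a core subunit, stood at 75.2 to 86.2 CPM in the dated libraries and 140 and 133 CPM in the undated ones (difference 0.74, adjusted p = 0.00288). Without parental-3, 7 proteasome genes rose, and without KO2-1, 19. Of 13 NRF2 targets, genes of the oxidant response, 7 rose and 1 fell (median 0.48). NQO1, a quinone reductase, stood at 3.39 to 4.77 CPM and at 11.6 and 6.81 CPM, and ferritin light chain FTL had a difference of 0.62 (adjusted p = 0.0204). HMOX1, heme oxygenase, was high in parental-3, at 29.3 CPM against 5.11 to 9.09 CPM elsewhere, and did not pass the test (adjusted p = 0.0513). The member that fell was the cystine transporter SLC7A11, also on the integrated stress response list, from 74.0 to 237 CPM to 50.2 and 44.5 CPM. Without parental-3, 4 NRF2 targets rose, and without date A, 3.

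Of 24 cholesterol synthesis genes 6 rose and 2 fell (25% and 8.33%, against 10.5% and 24.7% of all genes). Their median was 0.31, and 14 rose after TMM scaling. DHCR7, an enzyme of the last steps, stood at 47.3 to 65.7 CPM in the dated libraries and 93.8 and 122 CPM in the undated ones (difference 0.92, adjusted p = 0.00174). Of 20 glycolysis genes 7 rose and 2 fell (35% and 10%), with a median of 0.48 in parental cells and -0.02 in UBR7KO. Pyruvate kinase PKM had a difference of 0.77, at 643 to 1322 CPM against 1699 and 1568 CPM, while ALDOC fell by 1.10. Of 77 nuclear genes of oxidative phosphorylation 14 rose and 5 fell on CPM (18.2% and 6.49%), and 31 and 2 after TMM scaling. Without parental-3 the rises numbered 10 in cholesterol synthesis, 4 in glycolysis and 8 in oxidative phosphorylation. Without KO2-1 they numbered 7, 11 and 22. Without date A they numbered 5, 5 and 25, and without date B 8, 4 and 9.

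Immediate early genes fell in part: of 25 tested, 11 fell and 2 rose, with a median of -0.39. These were 44% and 8%, against 24.7% and 10.5% of all genes. EGR1, a zinc finger factor, stood at 56.3 and 8.67 CPM in the dated parental libraries, 20.2 and 9.53 CPM in KO1, 0.755 CPM in parental-3 and 1.21 CPM in KO2-1 (difference -3.25, SE 0.37, adjusted p = 0.00255). FOS, a subunit of AP-1, stood at 51.9 and 3.34 CPM, 18.7 and 4.90 CPM, 0.824 CPM and 0.738 CPM in the same order (difference -2.84, SE 0.37, adjusted p = 0.0031). ATF3, which the integrated stress response also induces, stood at 53 to 151 CPM in the dated libraries and 16.4 and 14.1 CPM in the undated ones. IER5, BTG2 and KLF6 had differences between -0.24 and 0.03 and did not pass the test. Date A was the highest in EGR1 and FOS in both genotypes, and with that date left out 6 of the list fell. Without KO2-1, 6 fell, and without parental-3 or after TMM scaling, 7.

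Of 5 glucose-responsive genes, targets of the factor MondoA, 4 fell (median -1.10). TXNIP, an inhibitor of glucose uptake, stood at 192 and 29.8 CPM in the dated parental libraries, 118 and 54.8 CPM in KO1, 13.6 CPM in parental-3 and 12.7 CPM in KO2-1 (difference -2.49, SE 0.31, adjusted p = 0.00451). ARRDC4, its relative, fell by 1.40. Of these 5 genes, 2 fell without parental-3 and 2 without KO2-1. Of 20 hypoxia targets 13 fell and none rose (median -0.57). VEGFA, the vascular growth factor, stood at 54.3 to 107 CPM and at 21.9 and 25.4 CPM (difference -1.58, adjusted p = 0.000736). BNIP3L, a mitophagy receptor, and PDK1, a kinase that limits pyruvate oxidation, had differences of -1.12 and -1.0. EGLN3, a prolyl hydroxylase, had a difference of 0.06 (adjusted p = 0.834). Without the date date B, 8 hypoxia targets fell.

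Matrix genes other than collagens were lower. Of 32 tested 17 fell and none rose (median -0.59, -0.35 in parental cells and -0.91 in UBR7KO). LAMB2, a laminin chain, stood at 105 and 69.4 CPM in the dated parental libraries, 126 and 92.9 CPM in KO1, and 30.4 CPM in both parental-3 and KO2-1 (difference -1.63, SE 0.13, adjusted p = 0.000394). Fibronectin FN1 stood at 75.9 to 99.5 CPM and at 37.9 and 25.5 CPM (difference -1.42, adjusted p = 0.00174). Of 27 collagen chains 7 fell (25.9%, near the 24.7% of all genes), COL6A2 by 1.2. Of 15 YAP and TEAD targets 6 fell (40%, against 24.7% of all genes), FSTL1 by 1.2 (adjusted p = 0.00136). Without parental-3, 14 collagen chains and 9 of the YAP and TEAD targets fell. Within the TGF-beta and BMP list the directions were mixed. Of 22 genes 4 rose and 7 fell (18.2% and 31.8%, against 10.5% and 24.7% of all genes). Among those that fell was LTBP2, a latent TGF-beta binding protein, from 3.70 to 12.1 CPM to 1.17 and 1.27 CPM. SMAD6, an inhibitor of BMP signalling, rose by 0.80 (adjusted p = 0.00695).

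RNA classes that depend on how RNA is selected or kept in the nucleus were compared as well. Nuclear-retained long noncoding RNAs fell in 5 of 10, none rising, and in 3 of 10 without parental-3. NEAT1, the scaffold of paraspeckles, stood at 145 and 82.8 CPM in the dated parental libraries, 155 and 107 CPM in KO1, 28.2 CPM in parental-3 and 34.9 CPM in KO2-1 (difference -1.89, SE 0.12, adjusted p = 0.000122). MALAT1 of nuclear speckles stood at 625 to 814 CPM and at 386 and 453 CPM. Antisense genes had a median of -0.47, with 191 of 455 falling and 5 rising, and long intergenic RNAs -0.40, with 130 of 412 falling and 12 rising. Protein-coding genes had a median of -0.13. Whether counting used strand is not given in the sources used here, so reads of antisense genes may belong to their partners.

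Small structured RNAs, replication-dependent histones and ribosomal proteins differed more between the dates than between sets. Of 89 small structured RNAs 38 fell and 13 rose. RNU4-2, a spliceosomal RNA, stood at 216 and 39.4 CPM in the dated parental libraries, 123 and 25.0 CPM in KO1, 11.5 CPM in parental-3 and 8.99 CPM in KO2-1. RNU2-64P and RNU5E-1 ran in the same order. Without date A, 10 of the list fell, and the median against date B was 0.25 in parental cells and 0.11 in UBR7KO. Histone genes had a median of -0.44 and -0.35 against date A and 0.68 and 0.76 against date B. Of 47, 18 rose with both dates, 3 without date B and 30 without date A. Ribosomal protein genes had a median of -0.20, and -0.01 after TMM scaling, with 21 of 77 falling on CPM (27.3%, near the 24.7% of all genes) and 8 after TMM scaling. Without date A 5 of them fell, and without date B 39. RPS3A stood at 723 and 594 CPM at date A, 164 and 180 CPM at date B and 154 and 153 CPM in the undated pair, which thus lay close to date B.

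Mitochondrial ribosomal RNA (MT-RNR1 with MT-RNR2) took 17.1% and 20.7% of reads in the dated parental libraries, 15.8% and 21.1% in KO1, 24.7% in parental-3 and 26.3% in KO2-1. Both undated libraries were highest. The exact two-sided permutation test over 15 arrangements gave p = 0.0667, the smallest it allows. The same p was obtained for CTD-2328D6.1, with mean shares of 0.0186% and 4.93%. Shares of mitochondrial mRNAs (0.702% against 0.628%, exact permutation p = 0.4), of histones (1.13% against 1.09%, exact permutation p = 0.933) and of ribosomal proteins (4.24% against 4.98%, exact permutation p = 0.267) overlapped between the sets. Of the 13 mitochondrial mRNAs, MT-CO3 rose by 0.77 and MT-ND5 fell by 1.28. MT-ND5 stood at 171 and 411 CPM in dated parental cells, 102 and 312 CPM in KO1, 92.1 CPM in parental-3 and 85.9 CPM in KO2-1.

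Of marker genes listed for HEK293T cells, 12 of 26 kidney and 6 of 17 adrenal and neural crest genes were in the table. Of neuronal genes and intermediate filaments, 16 of 30 and 14 of 19 were in it. Of the 12 kidney markers 2 rose and 1 fell (16.7% and 8.33%, against 10.5% and 24.7% of all genes), with a median of -0.20. EYA1, a factor of kidney development, stood at 26.1 to 46.4 CPM in the dated libraries and 19.6 and 18.4 CPM in the undated ones (difference -0.70, adjusted p = 0.0134). WT1 stood at 4.43 to 5.33 CPM in the dated libraries and 10.4 and 8.62 CPM in the undated ones, KRT18 at 29.1 to 35.4 CPM and 47.9 and 43.1 CPM, and GATA2 at 16.5 to 24.1 CPM and 31.5 and 30.3 CPM. NEFM, a neurofilament chain, stood at 62.3 and 206 CPM in dated parental cells, 76.3 and 211 CPM in KO1, 60.4 CPM in parental-3 and 27.7 CPM in KO2-1. Of the marker lists of other cells, 4 of 10 fibroblast, 1 of 10 squamous, 2 of 14 blood and 0 of 9 hepatocyte genes were in the table. Summed fibroblast markers were 14.4 to 17.2 CPM in the dated libraries, 22.8 CPM in parental-3 and 7.95 CPM in KO2-1, and COL1A1 did not pass the test. The summed blood markers were 1.9 to 3.37 CPM in the dated and 3.16 and 2.99 CPM in the undated libraries. Of the 2 tested, LYZ rose by 0.55 (adjusted p = 0.0366), from 0.406 to 0.833 CPM to 1.30 and 1.61 CPM. With date A or date B left out, 0 blood markers rose. The part of other cells in the differences was not tested further. Of 7 UBR box proteins 2 fell (28.6%, against 24.7% of all genes), FBXO11 by 0.54 and UBR4 by 0.52, and neither was called after TMM scaling or without KO2-1. Of 25 histone chaperones 3 rose (12%, near the 10.5% of all genes) and 2 fell on CPM, against 12 and 1 after TMM scaling. Among those that rose was IPO4, an importin that carries histones, at 3.34 to 8.72 CPM and 13.6 and 11.9 CPM.

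The differences also moved with the level of a gene. With genes in 4 bands of equal size by mean level, the median was -0.36 in the lowest band, then -0.24 and -0.08, and 0.00 in the highest. For date B minus date A it was -0.28, -0.29, -0.14 and 0.03 in the same order. The part of the level in the results above was not tested. Genes called on CPM and after TMM scaling were set beside open chromatin in parental cells. A replicate-shared ATAC region lay within 1 kb of the start of 60.1% of 1486 genes that rose, 48.1% of 2235 that fell and 53.9% of all tested genes. Among genes above the median level the shares were 65.4%, 64.2% and 66.1%, and below it 44.1%, 39.8% and 41.7%.

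By position, the medians of 289 bins of 10 Mb, read against the median of all genes, ran from -0.62 to 0.30 in parental cells and from -0.53 to 0.80 in UBR7KO. Bins beyond 0.3 in either direction numbered 22 in parental cells and 28 in UBR7KO, and 4 were beyond it with the same sign in both. Those 4 were on chromosome 10 from 20 to 40 Mb and chromosome 18 from 20 to 40 Mb, all lower. The highest UBR7KO bins were on chromosome 9, with 0.80 from 20 to 30 Mb (15 genes) and 0.59 from 30 to 40 Mb (80 genes). The same bins stood at -0.38 and 0.08 in parental cells, and the difference between the genotypes there was not tested.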

How the data were processed

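RNA from 6 HEK293T libraries was compared. A column kit gave the RNA and TruSeq LS the libraries, per the labels' protocols. TopHat2 2.1.0, HTSeq 0.6.1 and edgeR are among the tools in the submitters' processing notes, which give no roles. The deposited table holds CPM, which the authors scaled to library totals and by nothing else visible in the values: all are whole multiples of 1 step per library within a relative tolerance of 1e-06, so reads and totals were recovered (22153291 to 29811908 reads). Its positions are of the GRCh37 type: 4.41% of 10186 protein-coding starts lay within 1 kb of a GRCh38.p14 RefSeq start. The score in the authors' deposited, replicate-shared ATAC regions was not used beyond their intervals. RefSeq starts matched 10716 of 14177 genes through current symbols.

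Calls used limma 3.58.1 (R 4.3.3) on log2(CPM + 1), with a mean-variance trend and robust moderation, over 14177 genes. A Benjamini-Hochberg adjusted p under 0.05 was required. As fixed in the design, the first test had 3 residual degrees of freedom. The fit of the 4 group means and the fit with the block had 2 each. TMM and RLE scaling, edgeR 4.0.16 quasi-likelihood and DESeq2 1.42.0 on the recovered reads, pseudocounts, filters, blocks and left-out libraries were alternatives. After TMM scaling 14063 genes passed the filter. The fits were also run on simulated reads, where the only requirement was recovery of large changes without spread between occasions. That requirement does not test the calls of the fit with the block. Python 3.11.15, pandas 2.3.3, numpy 2.4.6 and matplotlib 3.10.9 made the tables and figures.

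The pairing comes from the date codes in the labels. Libraries that share a date had 134 and 87 genes at least 2-fold apart, against 665 or more between dates. No label pairs parental-3 with KO2-1, which had 306.

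The members and the 52 gene lists were chosen with earlier results of these data known. The rule for named genes took UBR7, the 15 largest rises and falls among called genes at least 2-fold from the mean of the dated libraries in parental cells, up to 3 called members of each list, and CTD-2328D6.1, MT-RNR1, MT-RNR2, BEX1 and ZNF462. Since the first test called 4 genes, the rises, falls and list members were taken from the fit with the block, which was decided after the values were seen, as were further list members named.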

Additional observations from a re-analysis of the deposited data

Results flagged for a closer look

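ZNF462, a zinc finger gene on chromosome 9, was marked because the undated library lay above both dated libraries in parental cells and below both in UBR7KO. It stood at 8.97 and 9.07 CPM in the dated parental libraries, 29.9 CPM in parental-3, 4.09 and 1.88 CPM in KO1 and 1.07 CPM in KO2-1. The difference of the differences, UBR7KO minus parental, was -2.51 in log2(CPM + 1) and did not pass the test (limma adjusted p = 1.00). In UBR7KO the line and the set cannot be told apart.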

How the results depend on the processing

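The counts changed widely with how the date pairs entered the test, with the test used, with the genotype covariate and with the libraries kept. Genes higher and lower in the undated pair numbered 1 and 3. With the date pair as a fixed replicate block they numbered 1487 and 3501, and as a random replicate block 0 and 2. They numbered 4 and 4 with TMM scaling, 117 and 71 with edgeR quasi-likelihood, 912 and 1007 with DESeq2, 0 and 2 with no trend, 220 and 769 with no genotype covariate, 1274 and 1679 without date A, and 903 and 3097 without date B. Leaving out 1 library gave 0 to 77 higher and 1 to 468 lower genes, the most without parental-2. In parental cells alone the counts of 0 and 1 became 45 and 99 with DESeq2, 0 and 0 with edgeR quasi-likelihood, and 1836 and 3366 with the pair as a replicate block. Leaving out 1 library there gave 0 to 21 higher and 1 to 218 lower genes, again the most without parental-2; no such fit could be made without parental-3. The alternatives of the count with the block were added after the data were seen. The 1487 and 3501 genes became 2627 and 2235 with TMM scaling, 2604 and 2257 with RLE scaling, 2670 and 2088 with edgeR quasi-likelihood, 2446 and 1841 with DESeq2, 112 and 680 at 2-fold or more, 1274 and 1679 without date A, and 903 and 3097 without date B. Leaving out 1 library gave 539 to 1821 and 1295 to 3710, the fewest without KO1-2. Of 1111 values of 101 named genes under other scalings, pseudocounts or left-out libraries, 1110 kept their direction, the exception being ZNF462 without parental-3 (-0.89 against 0.37). Most of these genes were picked as called or largest differences, so kept directions follow in part from the choice. The medians of several lists near 0 changed sign with TMM scaling, among them the mitochondrial mRNAs (-0.07 to 0.11). Others were the circadian genes (-0.13 to 0.02), fatty acid synthesis (-0.11 to 0.07) and interferon-stimulated genes (-0.19 to 0.11). The adrenal and neural crest markers (-0.08 to 0.07) and fibroblast markers (-0.12 to 0.02) changed sign as well. With the undated libraries taken as 1 occasion, which no label states, no setting measures how far undated occasions differ among themselves.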
